A study of Mus musculus with 46 samples.

Results

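Potassium channel subunit genes were described across microglia and blood-derived macrophages sorted from mouse gliomas. All rows of the count table whose symbol begins with Kcn followed by a family letter or letters and a number were taken, except symbols ending in os, which gave 94 of 23329 symbols. Of these, 93 encode subunits of potassium channels and 1, Kcnq1ot1, is a noncoding transcript that lies antisense to Kcnq1 and is kept out of the channel classes below. The channel genes comprise 16 auxiliary subunits, 15 inward rectifiers, 14 tandem-pore (leak) channels, 8 Shaker-related Kv1 subunits, 8 members of the EAG, ERG and ELK group and 10 silent modifiers, with the rest being other pore-forming subunits.

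RNA sequencing had been carried out on 46 libraries from 23 mice, and both populations came from the tumour of each mouse. All mice, controls included, were nTVA Ink4a/Arf KO/KO animals, which lack both products of the Ink4a/Arf locus and express the avian retrovirus receptor TVA from the nestin promoter. All had received DF1 chicken cells producing the RCAS-PDGFB-HA virus by injection into the brain at 5 to 6 weeks of age, so every library comes from a tumour driven by PDGFB. The 7 stages were vehicle (4 mice), 5 days of BLZ945 (4 mice), an inhibitor of the CSF1 receptor, 5 days of radiation (IR, 2 mice), 5 days of both (IR+BLZ945, 3 mice), and tumours that had recurred after BLZ945 (2 mice), after IR (4 mice) or after IR+BLZ945 (4 mice). CD45+CD11b+ cells negative for Ly6C and Ly6G were split by CD49d, with the CD49d- cells taken as microglia (MG) and the CD49d+ cells as bone marrow-derived macrophages (BMDM), and Smart-Seq libraries without molecular identifiers were made. Doses, and the ages of the mice at sorting, are not given in the sources used here.

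Potassium channels let potassium leave the cell and so hold the membrane potential negative, which sets the driving force for calcium entry and the osmotic balance of the cell. Pore-forming subunits carry the current, and auxiliary subunits such as the Kcne, Kcnab and Kcnip families change its gating or bring the channel to the membrane. In microglia, a tandem-pore leak channel encoded by Kcnk13 is known to hold the resting potential and to act in process surveillance and inflammasome activation, whereas activated macrophages are known for the Kv1 channel encoded by Kcna3, the inward rectifier encoded by Kcnj2 and the calcium-activated channel encoded by Kcnn4.

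Libraries held from 3007379 counts in all to 16993474, with the lowest total in the MG library of mouse 65971. The 94 members received between 313.2 and 926.7 CPM (counts scaled to the library total) in MG (median 512.8) and between 229.3 and 537.0 in BMDM (median 353.0). Expression was concentrated in few of them: 5 members held 70.3% of all 228363 member counts, 43 members had fewer than 100 counts over the 46 libraries, and Kcna10 had none. A count was recorded in every library for 4 members, Kcnk13, Kcnk6, Kcna3 and Kcnq1ot1. The sorted populations were compared by marker lists: a list of 10 microglia genes averaged between 9.09 and 10.97 log2 CPM over the MG groups and between 5.92 and 8.23 over the BMDM groups, and a list of 10 genes of blood-derived macrophages between 1.33 and 3.87 in MG and between 6.09 and 7.25 in BMDM. The latter list includes Itga4, the gene of the sort marker CD49d, so its difference was in part set by the sort. RNA of other cells was present in some groups, as given beside the results it moves with. The share of reads from Lars2 and Malat1 also differed between stages: Lars2 lay between 11.43 and 15.22 log2 CPM in all recurrent libraries, between 1.90 and 9.70 in all 5-day libraries, at 6.15, 6.90, 12.12 and 13.87 in the 4 MG vehicle libraries and between 2.99 and 7.76 in the BMDM vehicle libraries.

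Levels of different genes were compared per length, as CPM per kilobase of exon in the vehicle libraries (mean ± SD, n = 4). In MG the highest of these levels were those of the leak channels Kcnk6 at 40.0 ± 11.9 and Kcnk13 at 33.0 ± 5.15, followed by Kcna3 at 19.1 ± 11.2, Kcnj2 at 14.5 ± 13.8 and the silent leak subunit Kcnk12 at 7.51 ± 4.67. In BMDM Kcna3 came first at 32.1 ± 13.3, followed by Kcnk13 at 18.3 ± 4.83, Kcnk6 at 14.3 ± 6.25, Kcnn4 at 6.54 ± 1.35 and the Kv beta subunit Kcnab2 at 5.79 ± 2.84. The ranges of mean ± SD overlapped between all neighbours in both orders except Kcnk6 and Kcnn4 in BMDM, so the first places of Kcnk6 in MG and of Kcna3 in BMDM were not separated from the next gene. The same 3 genes, Kcnk6, Kcnk13 and Kcna3, took the first 3 places in both populations.

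**Figure D1:**
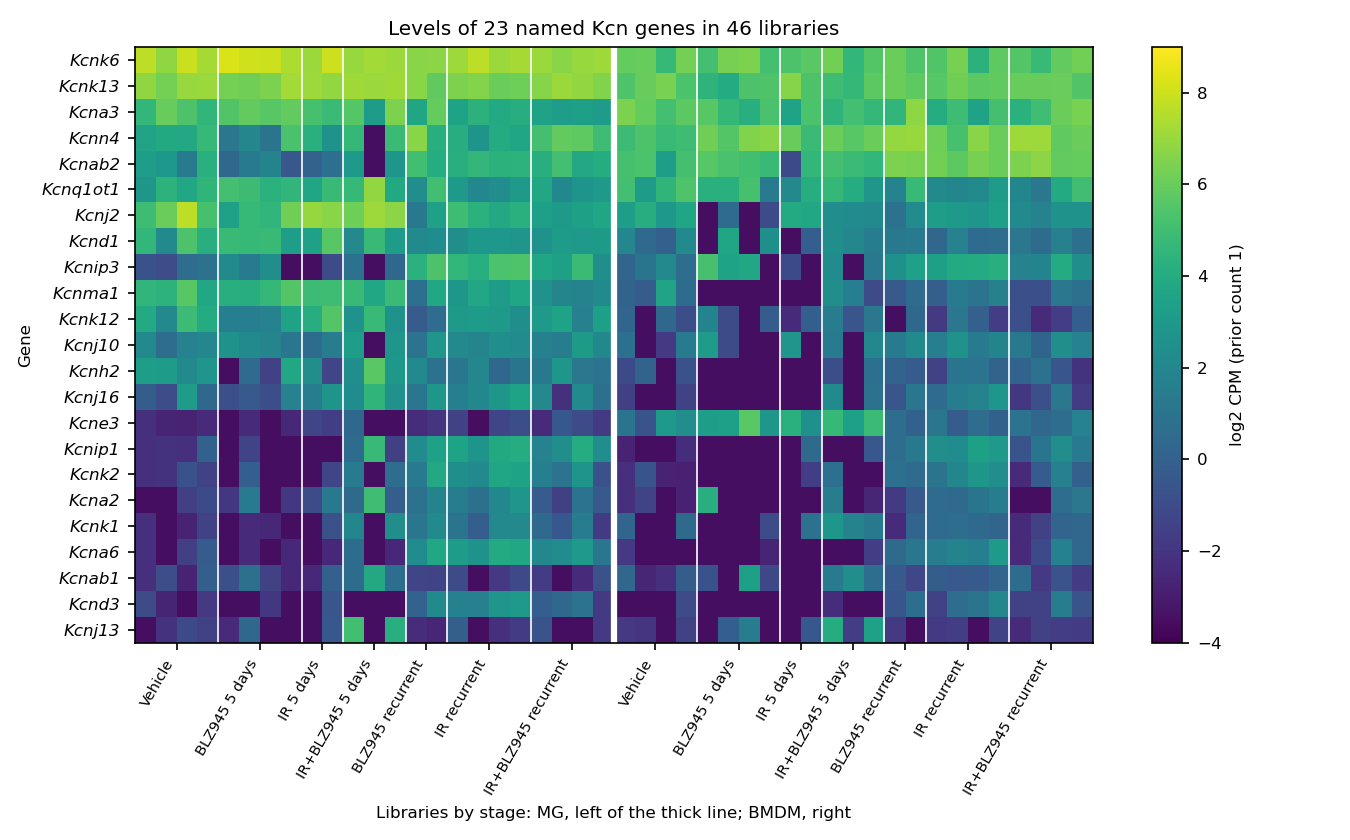
Level of each of the 23 named genes (rows, ordered by their mean over all libraries) in each of the 46 libraries (columns, grouped by stage, MG on the left and BMDM on the right), as log2 CPM. Kcnk6 and Kcnk13 are high in all libraries, Kcne3 is low throughout MG, and dark cells mark libraries without a count, which are listed at -3.53.

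Of the channel genes that differed between the populations, most were higher in MG. Averaged over the 7 stages, 19 of the 64 members that could be tested were higher in MG and 4 were higher in BMDM by edgeR's quasi-likelihood test with Benjamini-Hochberg adjustment over all genes, the test used for every adjusted p below, with a threshold of 0.05. Of all 15901 genes tested, 18.2% were higher in MG and 15.4% were higher in BMDM. In either direction 23 of 64 members passed, 35.9%, near the 33.6% of all genes. The median log2 difference of the tested members was 1.06, against 0.09 over all genes, and the other 30 members had too few counts to be tested. A member read mainly in one population passes the filter through that population, so these counts describe the members tested and not the family. In sorted bulk samples, fewer cells of a type and less RNA per cell cannot be told apart. Marker lists of other cells also differed between MG and BMDM over the 7 stages. Their median log2 differences were 1.21 for glioma and precursor cells, 1.22 for choroid plexus, and 0.87 for neurons and for astrocytes. They were 0.76 for endothelial and mural cells, 0.55 for oligodendrocytes, 0.32 for neutrophils and -3.31 for T and NK cells. The part of these cells in the member differences was not tested.

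Among the leak channels, 4 of 10 tested were higher in MG and none in BMDM. Kcnk6 (chromosome 7, 29221928 to 29232522), a leak channel of endolysosomes and the plasma membrane, lay between 6.68 and 8.27 log2 CPM in MG (median 7.12) and between 4.38 and 6.43 in BMDM, with no overlap between the 23 libraries of each. Within mice, the MG library was the higher in 23 of 23, with a log2 difference of 1.60 ± 0.16 (SE derived from the test's p, here and below, adjusted p = 2.77e-10). Kcnk13 (chromosome 12, 99963149 to 100062682) was also higher in MG in 23 of 23 mice, by 1.03 ± 0.13 (adjusted p = 4.18e-08). Its ranges overlapped, from 5.80 to 7.22 log2 CPM in MG and from 4.00 to 6.62 in BMDM. Kcnk12, which forms no current on its own but can pair with Kcnk13, was higher in 22 of 23 mice by 3.40 ± 0.46 (adjusted p = 1.18e-07). Kcnk2, a mechanosensitive leak channel, differed by 1.59 ± 0.56 (adjusted p = 0.0261), but its adjusted p was 0.103 without mouse 70696 (log2 difference 1.35). It also did not pass without mouse 123 (log2 difference 0.98) or mouse 65972 (1.54).

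Inward rectifiers pass potassium more easily into the cell than out of it, and 3 of the 8 tested were higher in MG. Kcnj2 (chromosome 11, 111066164 to 111076825) was higher in 23 of 23 mice by 2.82 ± 0.28 (adjusted p = 7.78e-11), and Kcnj16 in 22 of 23 mice by 3.81 ± 0.60. Kcnj10, the inward rectifier best known from astrocytes, averaged 1.66 log2 CPM in MG and 0.36 in BMDM and did not pass (adjusted p = 0.402). The calcium-activated large conductance (BK) channel Kcnma1 (chromosome 14, 23292288 to 24005110) had the largest fitted difference among the members that passed, 5.09 ± 0.44 (adjusted p = 1.35e-11), and was higher in MG in 23 of 23 mice. Kcnma1 had no BMDM count after 5 days of BLZ945 or of IR, so the fit holds no measured size for these stages, and 5.09 averages over them. Its locus overlaps 4 transcripts of the opposite strand. It ran from 0.77 to 5.61 log2 CPM in MG and from -3.53, the value of a library without a count, to 3.62 in BMDM, so the ranges overlapped between mice though not within them. Of the voltage-gated subunits, 4 of 8 in the EAG, ERG and ELK group were higher in MG, among them the ERG channel Kcnh2 by 4.27 ± 0.63, and so was Kcnd1, a Kv4 subunit of A-type currents, by 2.58 ± 0.41 (adjusted p = 2.87e-06).

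BMDM held more RNA of 4 members, of which 3 are described here. Kcne3 (chromosome 7, 100176507 to 100184869), an auxiliary subunit that holds Kcnq1 channels open, was lower in MG in 23 of 23 mice and fell by 4.61 ± 0.44 on the log2 scale (adjusted p = 3.16e-11). It received 55 counts over all MG libraries and 2208 over all BMDM libraries. Kcnn4 (chromosome 7, 24369826 to 24385212), the intermediate conductance calcium-activated channel, was also lower in MG in all 23 mice, with a log2 difference of -1.70 ± 0.31 (adjusted p = 2.51e-05). Kcnab2, a beta subunit of Kv1 channels, was lower in MG in 22 of 23 mice, with a difference of -2.43 ± 0.30 (adjusted p = 1.63e-08). Kcnab2 overlaps 3 other annotated genes, and the strand setting of the counting is not given in the sources used here. The pore-forming partner of Kcnab2 in Kv1 channels, Kcna3, was higher in MG in 9 of 23 mice and did not pass, with a difference of -0.36 ± 0.23 (adjusted p = 0.247). A list of 10 T and NK cell genes, cells that also express Kcna3 and Kcnn4, averaged between -0.94 and 4.22 log2 CPM in the BMDM vehicle libraries and between -2.59 and 0.61 in the MG vehicle libraries. Over the 7 stages, 8 of these 10 genes were lower in MG and 0 higher, with a median log2 difference of -3.31. The part of this list in these results was not tested.

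**Figure D2:**
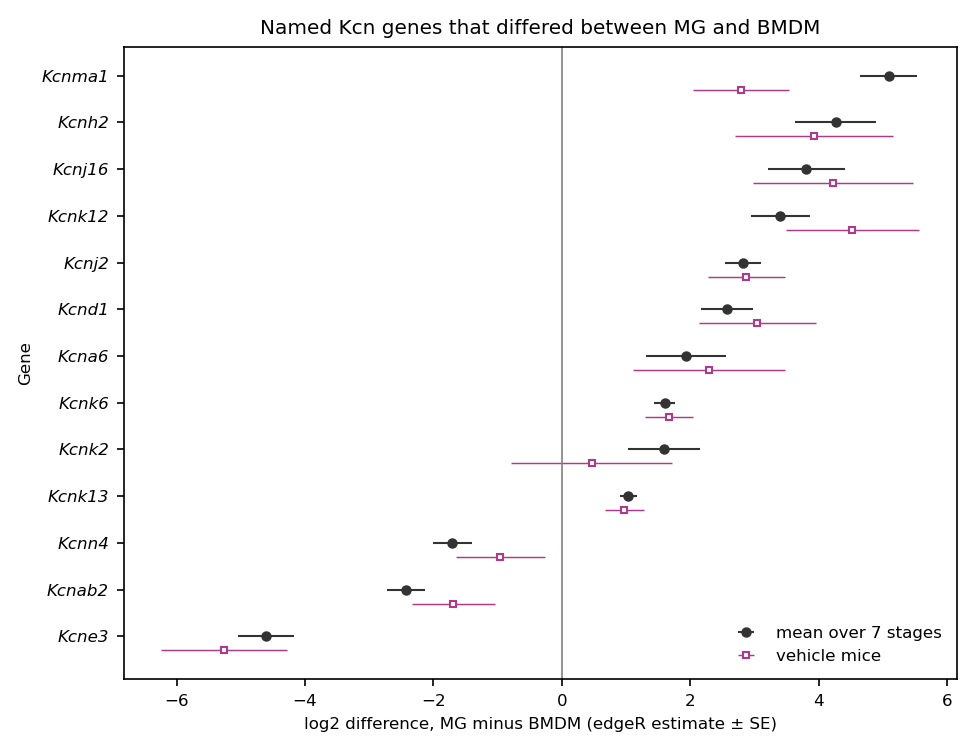
Log2 difference between MG and BMDM (horizontal axis, edgeR estimate with a standard error derived from the test's p) for the named members that passed the test over the 7 stages (filled circles) and the same genes in the 4 vehicle mice alone (open squares). Kcnma1 lies farthest to the right, higher in MG by a fitted 5.09 that averages over stages without a BMDM count, and Kcnn4, Kcnab2 and Kcne3 lie left of zero.

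**Figure D3:**
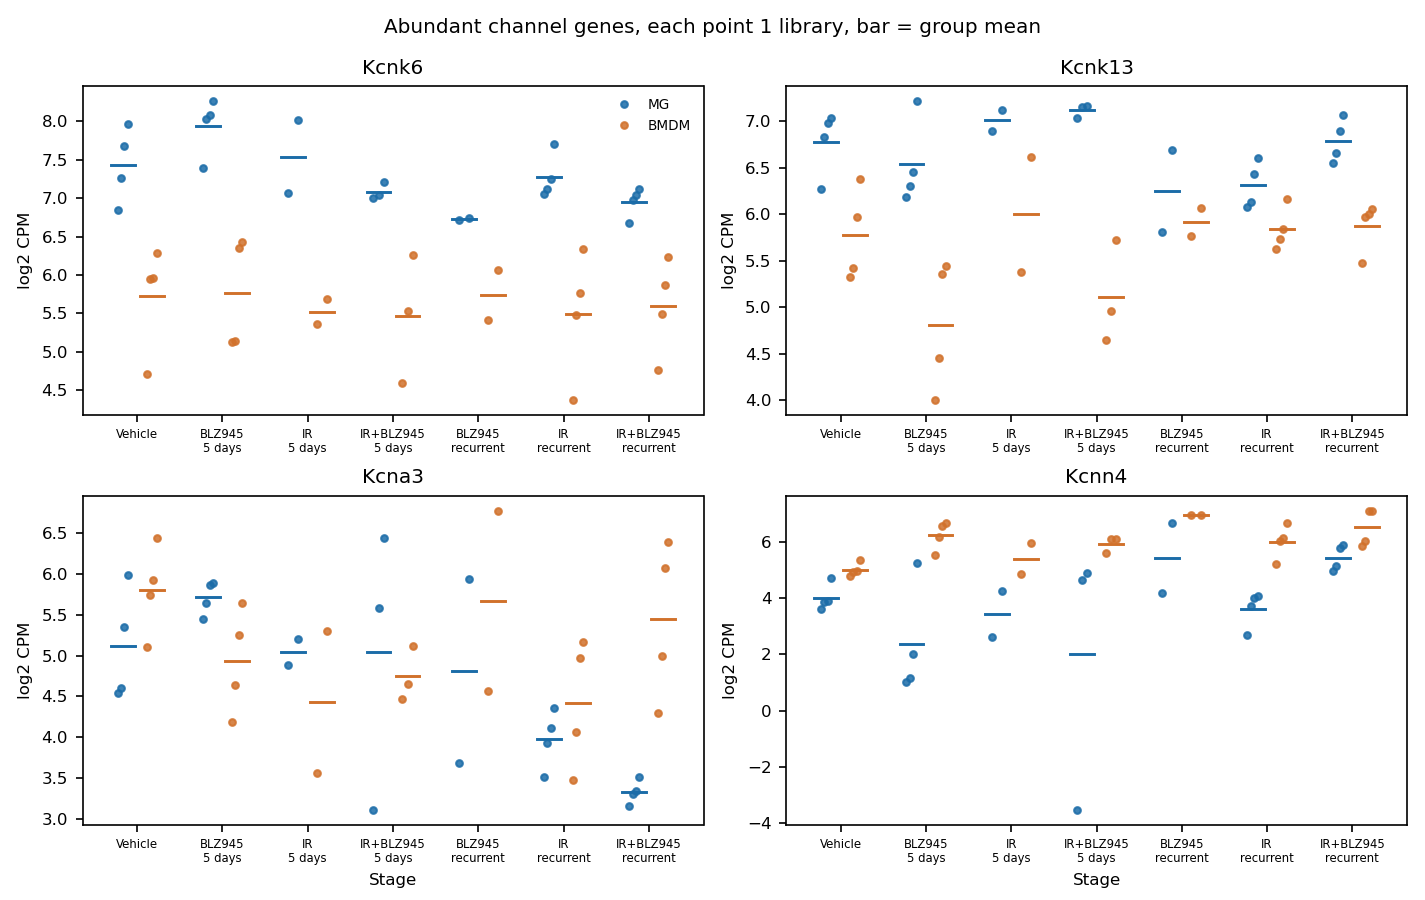
Level of 4 abundant members in each library (points, log2 CPM) by stage, with the group mean as a bar, for MG (blue) and BMDM (orange). The populations do not overlap for Kcnk6 (MG 6.68 to 8.27, BMDM 4.38 to 6.43), Kcnk13 and Kcnn4 lie apart in most stages, and Kcna3 overlaps in all stages except recurrence after IR+BLZ945, where MG lies at or below 3.51 and BMDM at or above 4.30.

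In the 4 vehicle mice alone, 9 members were higher in MG and 1 was lower, where 3.84% and 5.30% of all genes were. The 9 were Kcnk6, Kcnk13, Kcnk12, Kcnk9, Kcnj2, Kcnj16, Kcnma1, Kcnd1 and Kcnh2, and the member that was lower was Kcne3. Kcne3 received 5 counts in MG and 249 in BMDM, at -2.72, -2.64, -2.46 and -2.20 log2 CPM in MG and -0.65, 1.00, 2.41 and 2.99 in BMDM, without overlap (difference -5.25 ± 0.98, adjusted p = 0.000237). Kcnk12 lay at 2.11, 3.96, 4.01 and 4.89 log2 CPM in MG against -3.53, -0.87, 0.22 and 0.40 in BMDM (4.52 ± 1.04, adjusted p = 0.00279). Kcnk9, another leak channel, had 43 counts in MG and none in BMDM, which makes it at least 14.6-fold higher (adjusted p = 0.0492). Of these counts 35 came from mouse 65967, and the bound is 3.83-fold without it. Kcnn4 did not overlap either, at 3.60, 3.85, 3.89 and 4.72 in MG against 4.80, 4.92, 4.98 and 5.36 in BMDM, but did not pass here (adjusted p = 0.478). With each vehicle mouse left out in turn, between 4 and 6 members passed, and Kcnk12 and Kcne3 passed each time. Kcnj2 and Kcnk6 were lost without mouse 65967 (adjusted p = 0.0887 and 0.0639), Kcnk13 without mouse 41 or 78 (0.196 and 0.249), Kcnma1 without mouse 41, 65966 or 78 (0.0545 to 0.0831), Kcnj16 without mouse 65966 or 65967 (0.058 and 0.434), and Kcnd1 and Kcnh2 without any 1 of the 4 (0.0554 to 0.226). Kcnk9 was lost without mouse 41, 65966 or 78 (0.0969 to 0.13) and was not tested without mouse 65967, so it passed in none of these fits. It was also lost with RLE size factors (0.0505) and with no low-count filter (0.0617), had no adjusted p by DESeq2, and passed without doubted libraries (0.0452). With the mouse as a block, 7 of the 10 passed, and Kcnd1 (adjusted p = 0.0917), Kcnj16 (0.151) and Kcnk9 (0.222) did not. Lars2, which was higher in these MG than BMDM libraries by 5.35 ± 1.12 (adjusted p = 0.00108), and Malat1, with a difference of -2.43 ± 0.54 (adjusted p = 0.0021), moved with this contrast, and their part in it was not tested.

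Other genes of ion transport were read from a list of 28 genes, all of which could be tested. It holds sodium pumps, chloride cotransporters, purinergic and calcium channels, volume-regulated anion channels and other ion channels, and also the inflammasome sensor Nlrp3. Over the 7 stages 11 were higher in MG and 5 were lower, where 18.2% and 15.4% of all genes were, with a median difference of 0.21 against 0.09 over all genes. Hcn2, a cation channel opened by hyperpolarization, was higher in MG by 4.98 ± 0.48 (adjusted p = 3.07e-10), and the sodium-potassium-chloride cotransporter Slc12a2 by 2.57 ± 0.27 (adjusted p = 4.77e-10). In the other direction Lrrc8c, a subunit of the volume-regulated anion channel, differed by -2.52 ± 0.20 (adjusted p = 5.91e-13) while Lrrc8a, the subunit that all such channels need, was higher in MG by 1.10 ± 0.30. P2rx7, whose opening lets potassium out of the cell upstream of the inflammasome, was higher in MG by 0.51 ± 0.16.

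Promoter sequence was read for the 250 bases upstream of RefSeq transcription starts (GRCm38.p6), which 69 of the 94 members have in the reference table, to see whether genes that moved together share the letters of a few macrophage motifs. Both strands were searched for GAGGAAGT (PU.1), TGANTCA (AP-1) and TGTGGTT (RUNX), and for the MEF2 motif, none of which overlap one another in the windows printed here. Of 32851 such windows over all genes, 2.44%, 6.75%, 4.40% and 3.2% hold them. Of the 94 windows of members, 0, 4, 2 and 2 do. Among the 21 named genes with a start in the table, 3 hold a match, each to the AP-1 pattern TGANTCA, in which N is any base. The matched letters are TGAATCA in Kcne3 and TGACTCA in Kcnip3 and Kcnk2. These are printed 5′ to 3′ on the gene's strand with up to 40 bases on either side and the match in capitals, because they belong to Kcne3, the member with the largest excess in BMDM, and to Kcnip3 and Kcnk2, which rose in recurrent MG. The printed stretches of Kcne3 and Kcnk2 lie inside the RefSeq span of their genes (100176507 to 100184869 and 189207930 to 189402782). They are thus upstream of a start within the gene and not of its outermost start. The Kcnip3 stretch lies outside the span of its gene. A match describes letters only.
Kcne3 (chr7:100176593-100176669, plus strand, match 37 bases before the start): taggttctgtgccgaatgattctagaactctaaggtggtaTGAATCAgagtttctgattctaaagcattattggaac
Kcnip3 (chr2:127522170-127522256, minus strand, match 122 bases before the start): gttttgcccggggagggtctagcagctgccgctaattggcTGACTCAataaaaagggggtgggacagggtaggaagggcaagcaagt
Kcnk2 (chr1:189344272-189344358, minus strand, match 126 bases before the start): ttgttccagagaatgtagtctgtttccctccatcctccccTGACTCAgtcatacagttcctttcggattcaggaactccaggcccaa

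For 3 members the differences among stages themselves differed between the populations: Kcnma1 (adjusted p = 0.00042), Kcnj2 (adjusted p = 0.00116) and Kcne3 (adjusted p = 0.0263), each in a joint test of 6 coefficients. That is 3 of 64 tested, near the 4.31% of all genes that passed, so the count says nothing particular about the family. Kcnj2 in MG lay at 4.98, 5.22, 6.01 and 7.70 log2 CPM in vehicle, at 6.69 and 6.94 after 5 days of IR and at 6.13, 6.72 and 7.08 after 5 days of IR+BLZ945. It lay lower at 3.07, 3.33, 3.39 and 3.69 in tumours recurrent after IR+BLZ945 and at 1.24 and 3.44 after BLZ945. In BMDM Kcnj2 was lowest after 5 days of BLZ945 instead, at -3.53, -3.53, -0.96 and 0.53. Kcnma1 in BMDM received no count in any of the 4 libraries after 5 days of BLZ945 or the 2 after 5 days of IR, whereas MG lay between 4.10 and 5.53 log2 CPM in these stages. Of these BMDM libraries, those of mice 122, 124 and 65698 were among the doubted libraries left out in 1 setting, where Kcnma1 still passed (edgeR adjusted p = 0.0199). Kcne3 in BMDM lay highest after 5 days of treatment, at 2.90, 3.24, 3.31 and 5.69 with BLZ945, 2.52 and 4.27 with IR and 3.33, 4.69 and 4.85 with both. It lay between -0.23 and 1.77 in all 10 recurrent BMDM libraries, and between -3.53 and 0.38 in all MG libraries. Kcne3 was not tested within MG because its counts were too few. With the mouse as a block Kcnma1 and Kcnj2 passed and Kcne3 did not (adjusted p = 0.11), and Kcne3 was also lost without any 1 of mice 122, 124, 70696, 67543, 67947, 68345 and 68346 (0.0512 to 0.096). By DESeq2 7 members passed.

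**Figure D4:**
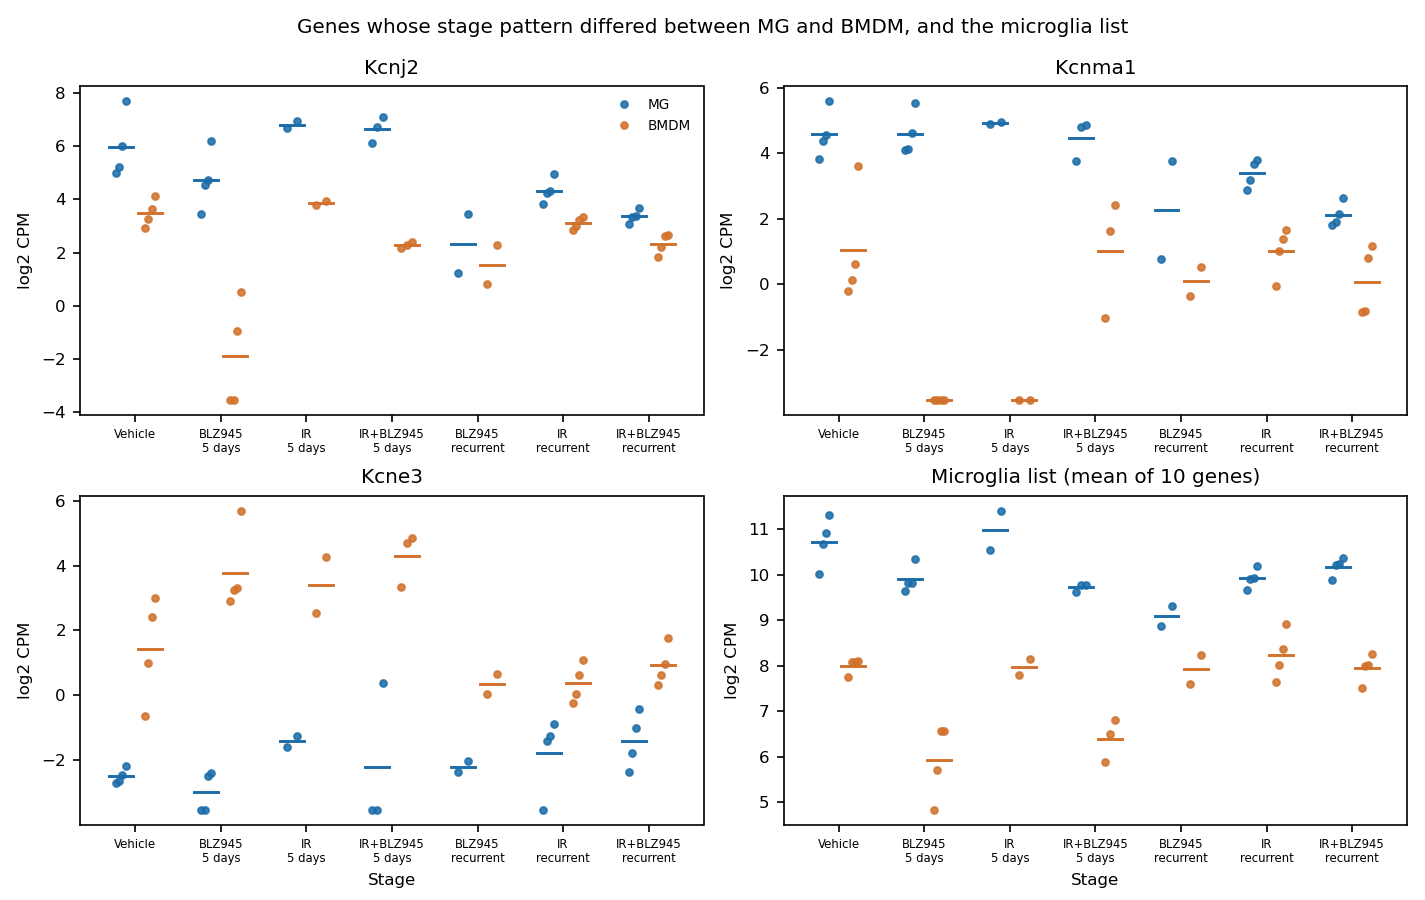
Level of Kcnj2, Kcnma1 and Kcne3 in each library (points, log2 CPM) by stage, with group means as bars, for MG (blue) and BMDM (orange), and the mean of 10 microglia genes in the same libraries. Kcnma1 sits at -3.53 in the 6 BMDM libraries of 5 days of BLZ945 or IR, and the microglia list averages 5.92 in BMDM after 5 days of BLZ945 against 7.995 in vehicle.

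Each treatment was set against vehicle within a population, and the 6 comparisons of a population share its 4 vehicle libraries. In BMDM after 5 days of BLZ945, Kcnj2 and Kcnma1 fell and Kcnn4 rose. These 2 members lower and 1 higher of 47 tested are near the share of all genes, 3.56% and 1.95%. Kcnj2 went from 2.95, 3.26, 3.63 and 4.11 log2 CPM in vehicle to the values given above, a drop from 697 to 22 counts and a log2 difference of -4.61 ± 0.87 (adjusted p = 0.00473). Kcnma1 went from 238 counts to none and was at least 57.4-fold lower (adjusted p = 0.00588), with the vehicle libraries at -0.19, 0.14, 0.61 and 3.62. The highest of these, mouse 65967, held 187 of the counts, and the bound is 17.2-fold without it. Both passed in all 8 fits with 1 library left out and in all 6 other settings. Kcnn4 lay at 5.53, 6.17, 6.56 and 6.69 log2 CPM against 4.80, 4.92, 4.98 and 5.36 in vehicle, without overlap, and rose by 1.29 ± 0.35 (adjusted p = 0.0339). The Kcnn4 call was lost without any 1 of mice 124, 65975, 41, 65967 and 78 (adjusted p from 0.0518 to 0.0835), and in 3 of 6 other settings: without doubted libraries (0.103), with 1 fit over all libraries (0.228) and with a term for Malat1 and Lars2 (0.0507). The mean of the microglia list in BMDM was lower too, between 4.83 and 6.57 log2 CPM after BLZ945 against 7.74 to 8.09 in vehicle, with counts for all 10 of its genes in both groups, and its part in these changes was not tested. The list of glioma and precursor genes averaged -0.84 in vehicle and -2.73 after BLZ945, with 4 of its 10 genes at 0 counts after BLZ945. Of the ion transport list 4 fell and 1 rose, among them Slc12a2 with a difference of -2.61 ± 0.69 and the calcium channel Orai1 with 1.46 ± 0.26.

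No member passed in BMDM after 5 days of IR or IR+BLZ945 by edgeR, where 1.07% and 0.570% of all genes did. At an unadjusted p below 0.05 there were 8 and 9 members, and DESeq2 called 3 and 2. In BMDM from tumours recurrent after BLZ945 and after IR+BLZ945 no member passed either, with 5 and 6 at an unadjusted p below 0.05, 1 and 2 by DESeq2, and 0.00% and 0.0275% of all genes by edgeR. In BMDM of tumours recurrent after IR, 2 of 47 members were higher, Kcna6 and Kcnip1, where 0.844% of all genes were. Kcnip1, a calcium-binding subunit of Kv4 channels, had 3 counts over the vehicle libraries and 373 after IR, a ratio of 147 with a counting interval from 49.9 to 715 (adjusted p = 0.0268), and the ratio was 324 without vehicle mouse 78. Kcna6, a Kv1 subunit, went from 3 to 229 counts, a ratio of 90.2 with an interval from 30.5 to 440 (adjusted p = 0.0341). Either call was lost without 7 of the 8 libraries in turn (adjusted p from 0.0584 to 0.111).

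In MG, 5 days of BLZ945 or of IR changed no member by edgeR, where 0.303% and 1.99% of all genes passed. At an unadjusted p below 0.05 there were 7 and 6 members, and DESeq2 called 1 in each. Kcnk13 did not pass after BLZ945, with a log2 difference of -0.13 ± 0.24 (adjusted p = 0.877), and after IR, with 0.25 ± 0.29 (adjusted p = 0.791). Kcnn4 lay at 1.00, 1.16 and 2.01 log2 CPM in 3 of the 4 MG libraries after BLZ945 and at 5.26 in the library of mouse 65975, against 3.60 to 4.72 in vehicle, and did not pass. Kcnab2 lay between -0.45 and 1.83 after BLZ945 and between 0.11 and 0.72 after IR, against 1.36, 2.91, 3.23 and 4.26 in vehicle, and did not pass either (adjusted p = 0.139 and 0.128).

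After 5 days of IR+BLZ945, 11 of the 52 members tested in MG rose and 1 fell, where 9.55% and 3.89% of all genes did, and the median log2 difference of the members was 1.27 against -0.02. Kcnj13, an inward rectifier of choroid plexus and retinal epithelium, went from 11 counts in the 4 vehicle libraries to 507 in the 3 treated ones, at -3.53, 4.15 and 5.05 log2 CPM (difference 6.41 ± 1.53, adjusted p = 0.0138). Kcne2, an auxiliary subunit of choroid plexus and stomach epithelium, went from 2 counts to 127, a ratio of 161 with a counting interval from 43.6 to 1340. Without vehicle mouse 65966, which held both vehicle counts, it was at least 83.6-fold higher. The Kcnj13 counts came from mice 65696 and 67537, whose BMDM libraries also held it, at 4.03 and 3.45 log2 CPM. A list of 9 choroid plexus genes was also higher, going from between -2.42 and -1.49 log2 CPM in the MG vehicle libraries to between 0.38 and 4.50, with 8 of the 9 genes passing. It averaged 1.26 in the BMDM libraries of this group against -2.89 in vehicle. Its part in the change of Kcnj13 and Kcne2 was not tested.

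Another subset of these rises came from the remaining mouse of that group. Kcna2, a Kv1 subunit of axons, lay at -0.08 and 0.49 log2 CPM in mice 67537 and 65696 and at 5.00 in mouse 65971 (vehicle -3.53, -3.53, -1.53 and -1.10), and rose by 6.24 ± 1.46 (adjusted p = 0.0133). Kcnip1 was at 4.80 and the Kv1 beta subunit Kcnab1 at 3.86 in the same library, against at most 0.60 and 0.71 in the others. Without that library, which had the lowest total count of the series, the adjusted p was 0.172 for Kcna2, 0.378 for Kcnip1 and 0.266 for Kcnab1. The same library held no count of Kcnn4, Kcnab2, Kcnj10 or Kcnk1. Kcnk1, Kcnab3, Kcnn2, Kcnh3 and Kcnh5 were also among the 11. Kcnh3 went from no count to 63 and was at least 53.2-fold higher (20.6-fold without mouse 65696, which held 48), and Kcna7 was the member that fell, from 35 counts to none (at least 4.6-fold lower, and 2.37-fold without mouse 67537 or 2.83-fold without mouse 65696). Leaving out vehicle mouse 41 left no member past the threshold, leaving out vehicle mouse 65966 left 2, and leaving out mouse 65971 left 6, so the count of 12 rests on these libraries. The adjusted p of Kcnj13 was 0.0627 without mouse 41. Of the neuron and astrocyte lists, 4 of 7 and 5 of 10 genes tested also rose in this group, and their part in the rises was not tested.

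In MG from recurrent tumours, Kcna6, Kcnip1 and Kcnip3 were higher than in vehicle in each of the 3 comparisons, which share the vehicle libraries, while Kcnj2, Kcnk12, Kcnma1 and Kcna3 were lower in 1 or 2 of them. After BLZ945 6 members were higher and 2 lower, where 2.97% and 0.557% of all genes were. After IR 7 were higher and none lower, where 4.20% and 0.138% of all genes were. After IR+BLZ945 3 were higher and 3 lower, where 2.04% and 2.78% of all genes were. The median log2 differences of the 52 tested members were 0.53, 0.70 and 0.29, against 0.00, 0.00 and -0.02 over all genes.

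The neuronal Kv1 subunit Kcna6 lay between -3.53 and -0.24 log2 CPM in the 4 vehicle libraries. It lay at 2.31 and 3.76 in recurrence after BLZ945, at 2.66, 3.13, 3.78 and 3.94 after IR and at 1.08, 2.08, 2.26 and 2.98 after IR+BLZ945. None of the 10 recurrent libraries overlapped the vehicle libraries, with differences of 5.10 ± 0.99 (adjusted p = 0.00695), 5.39 ± 0.94 (0.00211) and 4.03 ± 0.90 (0.018). Kcnip3, a KChIP that also binds DNA as DREAM, went from between -0.91 and 0.85 in vehicle to between 2.48 and 5.41 in recurrence, with differences of 4.96 ± 0.96, 5.02 ± 0.90 and 3.79 ± 0.86 (adjusted p = 0.00695, 0.00269 and 0.0195). Kcnip1 rose by 4.63 ± 1.22, 5.33 ± 1.16 and 4.49 ± 1.13 (adjusted p = 0.0382, 0.0099 and 0.0305). Kcnk2 and Kcnk1, leak channels of neurons and glia, and the Kv4 subunit Kcnd2 passed after BLZ945 and after IR, and Kcnd3 after IR. After IR+BLZ945 Kcnk2 differed by 3.39 ± 1.09 and did not pass (adjusted p = 0.0739). In BMDM, Kcnip3 lay between 1.79 and 4.17 log2 CPM in the recurrent libraries against 0.22 to 2.13 in vehicle, with overlap, and did not pass (adjusted p from 0.238 to 0.774).

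A list of 10 genes of glioma cells and oligodendrocyte precursors moved with these members. It averaged 0.12 log2 CPM in MG vehicle libraries (range -1.26 to 1.06) and 4.33, 4.50 and 3.02 in the tumours recurring after BLZ945, after IR and after both, with 7, 8 and 5 of its 10 genes passing and none at 0 counts. In BMDM it averaged -0.84 in vehicle and 2.08, 3.34 and 1.801 in recurrence. After 5 days of treatment it averaged -2.05 with BLZ945, -1.98 with IR and -0.46 with IR+BLZ945 in MG, and Kcna6 lay at or below 0.60 in these libraries. The neuron list lay between -0.68 and 0.52 in the recurrent MG libraries against -2.77 to -1.41 in vehicle, and the astrocyte list between 2.80 and 3.70 against 0.65 to 1.90, both without overlap. In recurrence after BLZ945, IR or both, 1 of 7 neuron genes tested passed each time, and 1, 2 and 1 of 10 astrocyte genes were higher. After IR 1 astrocyte gene was lower. The oligodendrocyte list averaged 2.05, 1.88 and 2.32 against 0.82. The part of these cells in the rises was not tested. Lars2 was higher in the recurrent libraries, as given above, and with a term for Malat1 and Lars2 in the fit 5, 4 and 0 members passed in the 3 comparisons, in place of 8, 7 and 6. In that fit Kcna6 passed after BLZ945 and after IR but not after IR+BLZ945 (adjusted p = 0.23).

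A few members fell in recurrent MG. Of the 19 that were higher in MG than in BMDM over the 7 stages, 3 fell in a recurrent group, Kcnj2, Kcnk12 and Kcnma1, whereas Kcna6 and Kcnk2 of the same 19 rose. The average over stages includes the recurrent MG libraries, so the place of Kcna6 and Kcnk2 in the 19 is not independent of their rise. Kcna6 was lost from the 19 without mouse 65696 (log2 difference 1.49, edgeR adjusted p = 0.0591) or mouse 65972 (log2 difference 1.61). Kcnj2 was lower after BLZ945, with a difference of -3.58 ± 0.83 (adjusted p = 0.0194), and after IR+BLZ945, with -3.03 ± 0.61 (adjusted p = 0.0113), on the values given above. After IR it lay at 3.84, 4.23, 4.31 and 4.95, below all vehicle libraries, with -1.91 ± 0.58 (adjusted p = 0.066). Kcnk12 was lower after BLZ945, at -0.25 and 0.66 log2 CPM, with -3.73 ± 0.92 (adjusted p = 0.0262), and lay between 1.65 and 3.53 in the other recurrent libraries. Kcnma1 was lower after IR+BLZ945, at 1.82, 1.90, 2.16 and 2.64 against 3.82, 4.38, 4.57 and 5.61 in vehicle, with -2.60 ± 0.53 (adjusted p = 0.0125). Kcna3, which did not pass between the populations, was lower there too, at 3.16, 3.30, 3.34 and 3.51 against 4.54, 4.60, 5.34 and 5.99, with -1.94 ± 0.51 (adjusted p = 0.0344). Kcnk13 and Kcnk6, the most abundant members, did not pass in any comparison of a treatment with vehicle in either population; their MG differences in recurrence lay between -0.44 and -0.01 and between -0.70 and -0.08. The microglia list averaged 9.09, 9.92 and 10.18 log2 CPM in these 3 recurrent MG groups and 10.72 in vehicle.

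These recurrence calls rested on few mice. Without recurrent mouse 70696 1 member passed after BLZ945, and it was not one of the 8, and without vehicle mouse 41 1 did. After IR 3 passed without vehicle mouse 41 or 65966 and 4 without mouse 68345, and after IR+BLZ945 none passed without mouse 67947 or vehicle mouse 65967. Kcna6 and Kcnip3 after IR passed in all 8 fits with 1 library left out (adjusted p at most 0.0261 and 0.0309). Each passed in 4 of 6 such fits after BLZ945 and in 4 of 8 after IR+BLZ945. Kcnip1 passed in 1 of 6 after BLZ945, in 6 of 8 after IR and in 3 of 8 after IR+BLZ945. With 1 fit over all libraries, Kcna6, Kcnip3 and Kcnip1 were lost after IR+BLZ945 (adjusted p = 0.0536, 0.0691 and 0.0522), and Kcnip1 also after BLZ945 (0.0699). Kcnj2 after BLZ945 was lost without mouse 67668 (adjusted p = 0.195), 70696 (0.058) or 65967 (0.0506), Kcnk12 without 67668 (0.223), 70696 (0.156), 41 (0.0623) or 65967 (0.0671), and Kcnj2 and Kcnma1 after IR+BLZ945 without 67947 (0.0554 and 0.0566) or 65967 (0.0629 and 0.0602). Kcna3 was lost without any 1 of 7 of the 8 libraries (0.0536 to 0.0995).

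**Figure D5:**
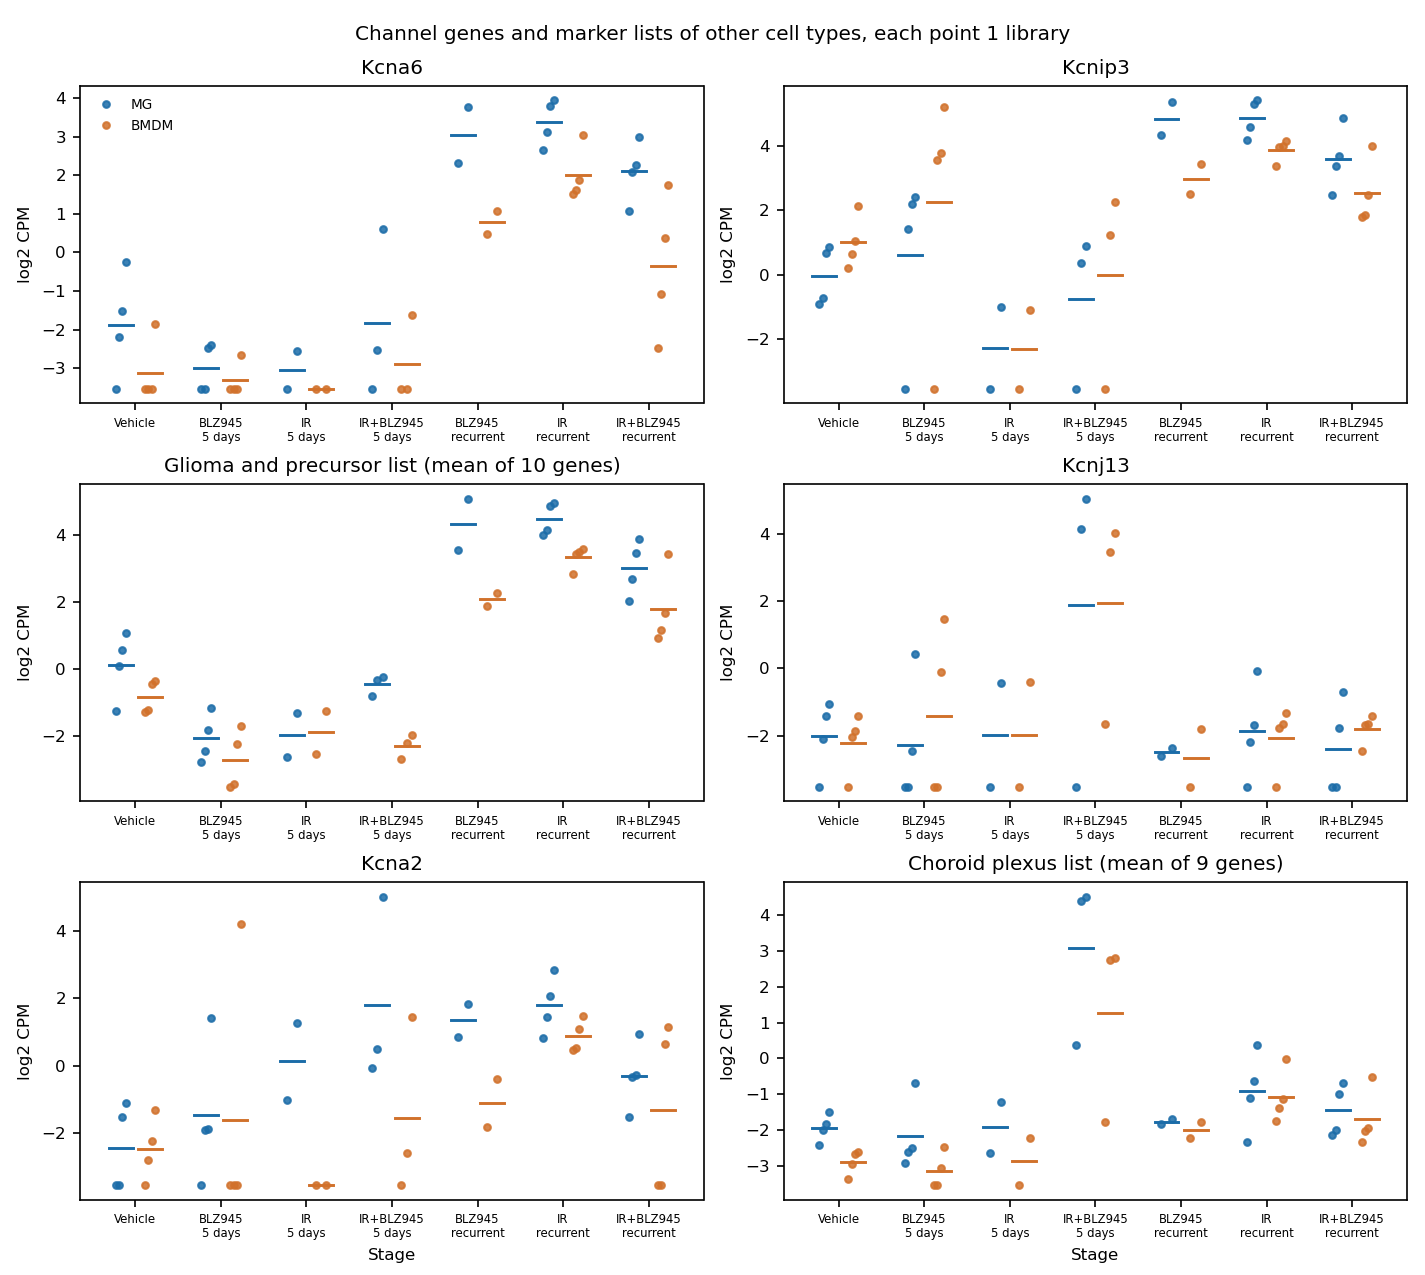
Levels of Kcna6, Kcnip3, Kcnj13 and Kcna2 in each library (points, log2 CPM) by stage, with group means as bars, for MG (blue) and BMDM (orange), beside the means of the glioma and precursor list and of the choroid plexus list in the same libraries. Kcna6 in MG lies at or above 1.08 in the recurrent libraries and at or below 0.60 elsewhere, the glioma list averages 3.02 to 4.50 in recurrent MG, Kcnj13 and the choroid plexus list are high in mice 65696 and 67537 after 5 days of IR+BLZ945, and the highest Kcna2 point, 5.00, is the MG library of mouse 65971.

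Tested for any difference among the 7 stages, 28 of 52 members passed in MG, where 37.4% of all genes did, and 12 of 47 in BMDM, where 20.7% did. In MG these were all 5 Kv1 and all 3 Kv4 subunits tested, 6 of 7 auxiliary subunits, 5 of 9 leak channels, 2 of 7 inward rectifiers and 1 of 6 in the EAG, ERG and ELK group. Kcna6 had the smallest adjusted p in MG, 5.12e-05, and Kcne3 in BMDM, 0.00167. Kcnk6 varied among stages in MG (adjusted p = 0.00927), with group means from 6.73 log2 CPM in recurrence after BLZ945 to 7.94 after 5 days of BLZ945, and did not pass in BMDM (adjusted p = 0.999). Kcnk13 did not pass in either population (adjusted p = 0.111 and 0.142), with group means from 6.25 to 7.12 log2 CPM in MG, and Kcnj10 did not (0.786 and 0.981). With the term for Malat1 and Lars2, 13 members passed in MG and 7 in BMDM. The noncoding Kcnq1ot1 (chromosome 7, 143213111 to 143296547) passed in MG (adjusted p = 0.00818), at 2.09 to 3.04 log2 CPM in recurrence after IR against 2.89 to 4.51 in vehicle, and its reads cannot be told apart from those of Kcnq1 on the other strand.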

How the data were processed

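RNA sequencing counts per gene were analysed in 46 libraries, MG and BMDM from each of 23 mice. The authors deposited raw counts. Per the submitters' processing notes, the tools included CASAVA 1.8, STAR 2.5.0e, HTSeq and DESeq2 with the mm10 build; the annotation and strand setting are not given in the sources used here. Coordinates are from RefSeq, and exon lengths and overlapping genes from the GENCODE annotation, both on GRCm38. Total counts ran from 3007379 to 16993474, and without molecular identifiers the intervals at a confidence level of 95% and the floor of 3 counts over a group cover counting error only.

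Counts were tested in R 4.3.3 with edgeR 4.0.16 (limma 3.58.1): TMM scaling, filterByExpr with a minimum count of 10 and a minimum total of 15, and robust quasi-likelihood tests, adjusted by Benjamini-Hochberg over all genes at a threshold of 0.05. Population comparisons used 1 fit of all 46 libraries and stage comparisons 1 fit per population of 23. Levels are log2 CPM with a prior count of 1. Each SE of a log2 difference was worked back from that difference and the p of its quasi-likelihood test. It is therefore not a measure of spread separate from that p. DESeq2 1.42.0, RLE size factors, no low-count filter, leaving out doubted libraries and leaving out each library or mouse in turn (69 fits) were tried beside every comparison. The doubted libraries were both of mouse 65698, the BMDM libraries of mice 122 and 124, and the MG libraries of mice 65971 and 68344. The mouse as a block was tried for population comparisons only, and 1 fit over all libraries and a term for Malat1 minus Lars2 for stage comparisons only. On counts simulated for MG after 5 days of BLZ945 against vehicle (14120 genes), 144 of 200 genes changed by a log2 size of 3 were recovered, with 9 false calls.

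Both libraries of a mouse come from the same animal, so the mouse pairs them; their deviations from the group means correlated between -0.094 and 0.442 over the 23 mice (median 0.153). No replicate counts agreed within sampling noise. That replicates were separate mice comes from the labels. Genes named in full were 8 channels known from these cells (Kcnn4, Kcna3, Kcnk13, Kcnk6, Kcnj2, Kcnj10, Kcnd1 and Kcnma1), the largest changes that passed with the higher group mean at 1 log2 CPM or more (up to 6 per direction between populations and up to 4 elsewhere), and the 10 members of highest mean level. Others were named to complete counts, after their values were seen. The members and lists were chosen with earlier results of these data known. Results for some genes are not reported here.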

Additional observations from a re-analysis of the deposited data

Results flagged for a closer look

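In 84 groups of 4 libraries, over 11 members, 4 held a library whose gap to the nearest other exceeded Dixon's critical value at the 95% level, and chance flags about 1 group in 20. Kcnk13 lay at 5.48 log2 CPM in the BMDM library of mouse 68362, recurrent after IR+BLZ945, with the others between 5.97 and 6.05. Kcnd1 lay at 3.23 in the MG library of mouse 65975 after 5 days of BLZ945, with the others between 4.72 and 4.81, and Kcnip3 had no count in that library (-3.53), with the others between 1.43 and 2.42. Kcnab2 lay at 3.26 in the BMDM vehicle library of mouse 65967, with the others between 5.18 and 5.33.

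The differences among stages differed between MG and BMDM for Kcnma1 (edgeR adjusted p = 0.00042), Kcnj2 (edgeR adjusted p = 0.00116) and Kcne3 (edgeR adjusted p = 0.0263, and 0.11 with the mouse as a block).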

How the results depend on the processing

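Over 51 results of named genes and 832 alternative values, 678 kept their direction and side of the threshold, 154 kept the direction but no longer passed, and 0 reversed; where a count moved, the cause was not tested. Few libraries per group, and few counts for most members, limit every stage comparison.

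By DESeq2 the count of members that passed was 7 for stage by population (main 3), 1 each for MG after 5 days of BLZ945 and of IR (0), 11 for MG recurrent after IR (7), and in BMDM 8 after 5 days of BLZ945 (3), 3 after IR and 2 after IR+BLZ945 (0), 1 and 2 in recurrence after BLZ945 and IR+BLZ945 (0) and 6 after IR (2). Without doubted libraries it was 5 for stage by population, 1 for MG BLZ945 at 5 days, 6 for MG IR+BLZ945 at 5 days (12), 10 for MG recurrent after IR+BLZ945 (6), and in BMDM 2 for IR+BLZ945 at 5 days, then 1, 6 and 2 in tumours recurring after BLZ945, after IR and after both. With 1 fit over all libraries it was 5, 3, 4 and 1 in MG for IR+BLZ945 at 5 days and tumours recurring after BLZ945, after IR and after both, and in BMDM 8 and 2 after 5 days of BLZ945 and IR, 5 in recurrence after IR and 24 for stage variation (12). With the Malat1 minus Lars2 term it was 5, 5, 4 and 0 in MG in the same order, 13 for stage variation in MG (28), 0 in BMDM recurrent after IR and 7 for stage variation in BMDM.

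With the mouse as a replicate block, 19 members passed over the 7 stages in place of 23, 7 in vehicle in place of 10, and 2 for stage by population in place of 3.

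With 1 library or mouse left out in turn, the counts ranged from 16 to 25 over the 7 stages, 4 to 6 in vehicle and 2 to 4 for stage by population. In MG they ranged from 0 to 2, 0 to 1 and 0 to 11 after 5 days of BLZ945, IR and IR+BLZ945, from 1 to 7, 3 to 8 and 0 to 7 in the recurrent groups in that order, and from 25 to 33 for stage variation. In BMDM they ranged from 2 to 7 (7 without mouse 65975), 0 to 1 and 0 to 0 at 5 days, 0 to 0, 0 to 1 and 0 to 0 in recurrence, and 10 to 15 for stage variation.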
